A study of Mus musculus with 27 samples.

Results

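The genes described here are the chemokines and their receptors: every gene named Ccl, Cxcl, Ccr or Cxcr with a number in the annotation of the array. There are 49 of them among 19057 named genes: 22 Ccl and 12 Cxcl ligands, and 9 Ccr and 6 Cxcr receptors. Each gene is represented by 1 probe, the one with the highest mean over all arrays. The arrays hold 2 liver metastases, 7 lung metastases, 12 primary osteosarcomas that gave metastases and 6 localized primary osteosarcomas, with 1 array per specimen of tissue. Osteosarcoma is a malignant tumour of bone. All tumours arose in mice with the Col2.3-Cre transgene, in which a rat Col1a1 promoter drives Cre recombinase in the osteoblast lineage, on a C57BL/6 background. Cre either deleted a floxed p53 allele or switched on LSL-p53R172H, an allele with a point mutation. The labels do not say which allele a given tumour carried, and give neither age nor sex. Each lung metastasis has its own primary tumour among the 12. For the liver metastasis CR-147, a primary and a lung metastasis of the same specimen number were also analysed, but neither for the liver metastasis RF-342. Nothing in the labels says that the specimens are separate animals, so p-values measure only the spread between specimens.

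Chemokines are small secreted proteins that steer leukocytes along concentration gradients by binding receptors coupled to G proteins. CC ligands (Ccl) bind Ccr receptors and mostly attract monocytes, eosinophils and lymphocytes, while CXC ligands (Cxcl) bind Cxcr receptors and attract mainly neutrophils or lymphocytes. In bone, Cxcl12 from stromal and osteoblast-lineage cells holds Cxcr4-bearing blood cell precursors in the marrow, and the same pair has been studied widely in tumour spread. In lung, epithelium and lymphatic vessels make chemokines of their own.

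The 5 genes whose sequence is shown lie on chromosome 5 and were chosen after their values were seen, among the genes for which RefSeq windows were given. Cxcl15 separated the lung metastases from their primaries. In specimen FC-28 the lung metastasis was lower than its primary by more than 3 on the log2 scale for Cxcl1, Cxcl2, Cxcl9 and Cxcl10. Each line gives the 250 bases before the RefSeq transcript start, 5′ to 3′ on the strand of the gene (build GRCm38.p6). Capitals mark matches to 4 motifs, each searched on both strands. The first was a loose form of the NF-kB consensus (GGG and CC with any 5 bases between). The others were a pair of interferon response half-sites (GAAA repeated after any 2 bases), the STAT consensus TTCNNNGAA, and TATAAA. Overlapping matches run together as 1 stretch of capitals.
Cxcl15 (chr5:90794284-90794533, + strand): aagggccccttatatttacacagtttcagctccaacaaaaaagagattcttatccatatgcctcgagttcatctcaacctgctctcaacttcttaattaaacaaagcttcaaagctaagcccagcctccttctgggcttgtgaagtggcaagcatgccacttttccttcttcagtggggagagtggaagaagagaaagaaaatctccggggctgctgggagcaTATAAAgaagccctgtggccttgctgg
Cxcl1 (chr5:90890995-90891244, + strand): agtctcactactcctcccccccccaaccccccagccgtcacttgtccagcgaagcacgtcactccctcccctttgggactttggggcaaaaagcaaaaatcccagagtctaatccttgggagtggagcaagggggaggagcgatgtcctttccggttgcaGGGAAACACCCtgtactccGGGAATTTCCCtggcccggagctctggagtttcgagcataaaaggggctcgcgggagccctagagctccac
Cxcl2 (chr5:90903649-90903898, + strand): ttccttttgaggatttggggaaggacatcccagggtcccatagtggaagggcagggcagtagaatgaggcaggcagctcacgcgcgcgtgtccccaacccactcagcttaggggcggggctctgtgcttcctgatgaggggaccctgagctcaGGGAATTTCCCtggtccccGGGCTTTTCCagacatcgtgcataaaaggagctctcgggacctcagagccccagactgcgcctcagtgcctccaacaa
Cxcl9 (chr5:92328080-92328329, - strand): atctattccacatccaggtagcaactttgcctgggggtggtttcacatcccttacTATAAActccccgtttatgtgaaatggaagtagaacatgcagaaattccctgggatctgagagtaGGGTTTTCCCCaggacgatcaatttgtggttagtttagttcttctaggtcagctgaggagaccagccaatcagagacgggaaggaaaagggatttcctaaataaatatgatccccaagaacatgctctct
Cxcl10 (chr5:92348890-92349139, - strand): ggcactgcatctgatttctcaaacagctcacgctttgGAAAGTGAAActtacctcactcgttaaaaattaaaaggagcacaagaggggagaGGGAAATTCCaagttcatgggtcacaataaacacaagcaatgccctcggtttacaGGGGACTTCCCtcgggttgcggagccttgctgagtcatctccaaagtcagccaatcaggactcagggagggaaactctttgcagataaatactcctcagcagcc
Cxcl1 and Cxcl2 both held GGGAATTTCC, which began 71 bases before the start in Cxcl1 and 97 bases before it in Cxcl2. Cxcl15 held none of the first 3 motifs and had TATAAA 27 bases before the start. Windows were found for 35 of the 49 genes, as 39 windows. The loose NF-kB form occurred in 59.0% of these 39 and in 45.8% of all 32851 windows. The pair of interferon half-sites occurred in 7.7% against 3.0% of all, the STAT consensus in 7.7% against 7.0%, and TATAAA in 23.1% against 12.4%. A match of letters is a description and not a bound site.

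Of the 49 genes, 12 were detected on all 27 arrays, 28 on some and 9 on none. The genes detected on no array were Ccl1, Ccl22, Ccl26, Ccl28, Ccr1, Ccr4, Ccr9, Ccr10 and Cxcl11. Levels below are log2 normalized intensities, and they are compared only within a gene. The genes with the highest mean level were Ccl9, Cxcl12, Cxcl16, Ccl12 and Ccl8, all of them ligands. Over all 27 arrays Ccl9, which in mouse attracts myeloid cells through Ccr1 and is made by osteoclasts, ranged over 10.00 to 13.67. Cxcl12 ranged over 8.87 to 13.99, and Cxcl16, a membrane-anchored ligand of Cxcr6, over 8.95 to 12.25. Ccl12, a mouse ligand of Ccr2, ranged over 7.33 to 12.89, and Ccl8, a ligand of Ccr8 in mouse, over 5.02 to 13.32. The receptor Cxcr4 was detected on every primary tumour and every metastasis.

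Within this family, the highest level of a gene often fell on 1 of a few tumours. The same count over all genes on the array was not made, so it does not set the family apart. Of the 40 genes detected on at least 1 array, 9 were highest in the metastatic primary RF-104, 6 in the metastatic primary FC-28, 6 in the localized primary RF-56 and 5 in the lung metastasis of FC-28. RF-104 led for Cxcl9, an interferon-induced ligand of Cxcr3, at 14.60, for Cxcr3 itself at 7.51, and for Cxcr6 at 8.94. Some of the genes counted were rarely detected, such as Cxcr6 on 2 arrays and Cxcl3 on 1. RF-56 led for Ccl5, which attracts T cells and monocytes, at 13.37, and for the monocyte attractant Ccl2 at 11.50. FC-28 led for Cxcl2, a neutrophil attractant that binds Cxcr2, at 11.22. RF-104 was also the highest of all primaries in the T and NK cell genes (8.15), the B and plasma cell genes (7.10), the dendritic cell genes (9.44), the macrophage genes (12.33) and the neutrophil and marrow myeloid genes (13.53). Their part in these values was not tested.

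**Figure D1:**
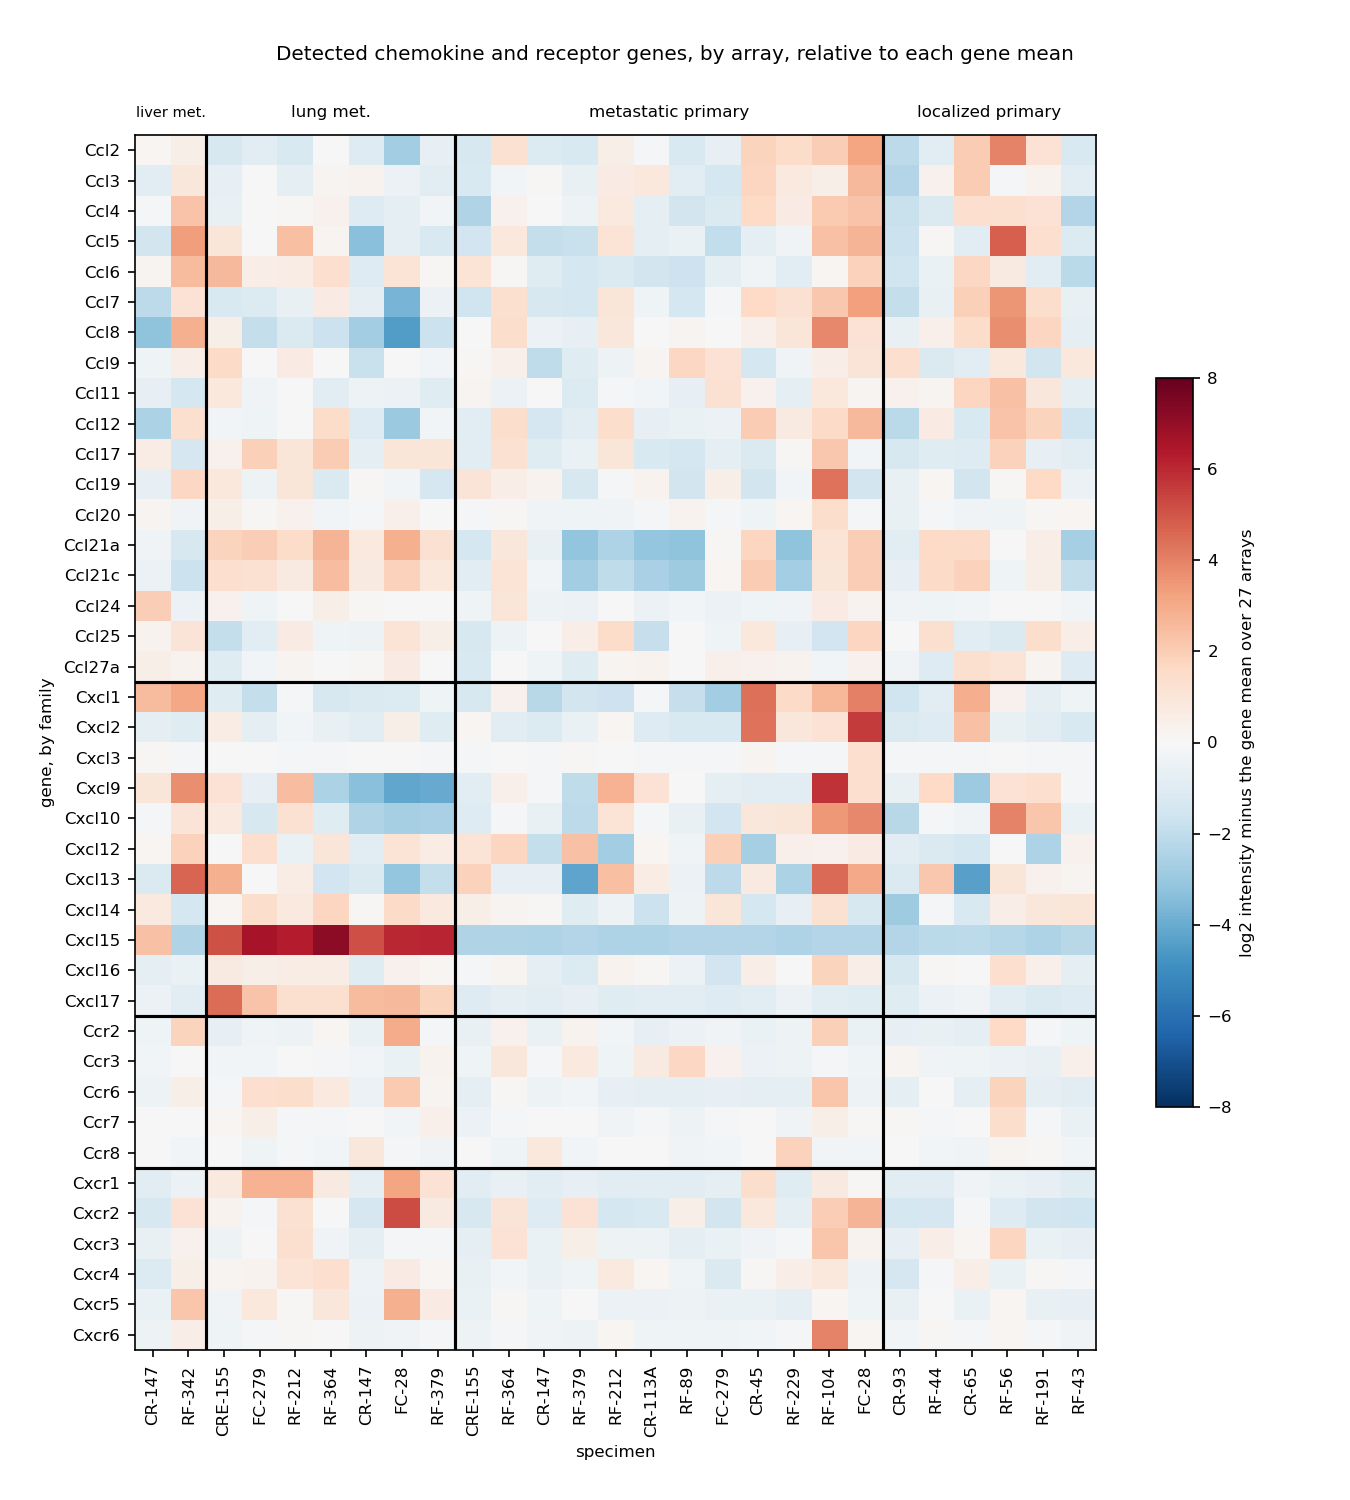
Levels of the 40 detected chemokine and receptor genes on the 27 arrays. Each cell is the log2 intensity of a gene minus its own mean over all arrays (red above, blue below), with genes in rows by family and arrays in columns by group. Cxcl15 stood at 12.02 to 14.09 in the 7 lung metastases. RF-104, RF-56 and FC-28 held the highest levels of many of the other genes shown.

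Some arrays stood apart. The signal of probes detected nowhere split the arrays into 12 of high background (median log2 signal 5.83 to 6.392) and 15 of low background (5.368 to 5.658). The 9 metastases, 2 metastatic and 4 localized primaries were low, so in 6 of 7 lung pairs a low metastasis faces a high primary, and only in FC-28 are both low. The bone matrix marker genes had a level of 5.76 to 6.57 in the primaries CR-45, FC-28, CR-65 and RF-56, and of 5.49 in the lung metastasis of FC-28. Lung epithelium genes were present in all lung metastases (mean 12.15 ± 0.60, SD, n = 7, against 5.28 ± 0.40, SD, n = 7, in their primaries). Hepatocyte genes were high in the lung metastases of RF-364, CR-147 and RF-379 (9.50 to 10.46) and skeletal muscle genes in the primaries (10.75 ± 2.37, SD, n = 7, against 5.94 ± 0.97, SD, n = 7, in the lung metastases). In such bulk tissue, fewer cells of a type and less RNA per cell cannot be told apart.

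The first comparison set primary tumours that gave metastases against localized ones. None of the 28 tested chemokine and receptor genes was called higher and none lower by limma, with a lowest adjusted p of 0.759. Over all 11684 genes tested, 0.00856% were called. At an unadjusted p under 0.05, 1 of the 28 was higher and 1 was lower. The median log2 fold change (metastatic minus localized) was 0.03 over the 28 genes and 0.01 over all genes, with 24 ligands and 4 receptors tested. The other 21 genes were detected on fewer than 6 of the 18 arrays and were not tested.

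Among receptors, Cxcr2, through which neutrophils follow Cxcl1 and Cxcl2, had the highest fold change. Its level had a minimum of 4.60, a median of 5.90 and a maximum of 8.80 in metastatic primaries, against 4.46, 4.68 and 5.93 in localized ones. It was detected on 7 of 12 metastatic and 1 of 6 localized primaries, and the groups overlapped. Metastatic minus localized was 1.25 (SE 0.58, adjusted p = 0.759 by limma), and it was 1.16 within the arrays of high background, 3.34 within those of low background, 0.83 with a larger neqc offset and 0.69 with the mean of all probes. The arrays of high background hold 10 metastatic and 2 localized primaries, and those of low background 2 metastatic (RF-104 and FC-28) and 4 localized. Values within a class thus rest on few tumours. The neutrophil and marrow myeloid marker genes were also higher in mean, 9.06 ± 2.03 (SD, n = 12) against 7.08 ± 1.09 (SD, n = 6), and their part in the Cxcr2 values was not tested.

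Among ligands, Cxcl12 had 8.87, 12.00 and 13.99 (minimum, median, maximum) in metastatic primaries, against 9.15, 10.62 and 11.99 in localized primaries. The 6 highest metastatic values, 12.05 to 13.99, lay above every localized tumour, while RF-212 and CR-45 lay below all of them. The difference of 1.01 (SE 0.71, adjusted p = 0.842 by limma) was smaller than the spread between tumours, and other detected probes of Cxcl12 gave 0.16 to 0.35, so the mean of all probes gave 0.37. Cxcl2 had a fold change of 0.95 (SE 0.93, adjusted p = 0.896 by limma) and was detected on 6 of 12 metastatic and 1 of 6 localized primaries. Its highest levels were 11.22 in FC-28 and 9.96 in CR-45 among metastatic primaries, and 7.95 in CR-65 among localized ones. These are 3 of the 4 primaries low in bone matrix genes, and 1 array moved the value: it was 0.49 without FC-28, 0.61 without CR-45 and 1.5 without CR-65. It was also 0.56 with the specimen prefix as a covariate and 3.50 within the arrays of low background, whose only metastatic primaries are RF-104 and FC-28.

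At the other end, Ccl11 (eotaxin, an attractant of eosinophils) had 5.22, 6.25 and 7.55 (minimum, median, maximum) in metastatic primaries, against 5.55, 6.95 and 8.64 in localized primaries. It stood at -0.83 on the log2 scale (SE 0.39, adjusted p = 0.762 by limma), and the mean of the localized tumours was above 10 of 12 metastatic ones. The difference was -0.52 without RF-56, -0.28 without the 4 primaries low in bone matrix genes and -0.22 within the arrays of high background. Ccl21a and Ccl21c, nearly identical copies of a ligand of Ccr7 made by lymphatic endothelium and lymphoid stroma, stood at -0.97 and -0.81. Their probes may read each other's transcripts, so each value is uncertain. Within the arrays of low background, with RF-104 and FC-28 as the only metastatic primaries, the difference of Ccl21a was 0.94 and that of Ccl21c 0.86. Both had the opposite sign. It was -1.51 for Ccl21a and -1.23 for Ccl21c without the localized primary RF-43, and -0.47 for Ccl21c without CR-65. The remaining 22 tested genes had fold changes between -0.64 and 0.50.

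**Figure D2:**
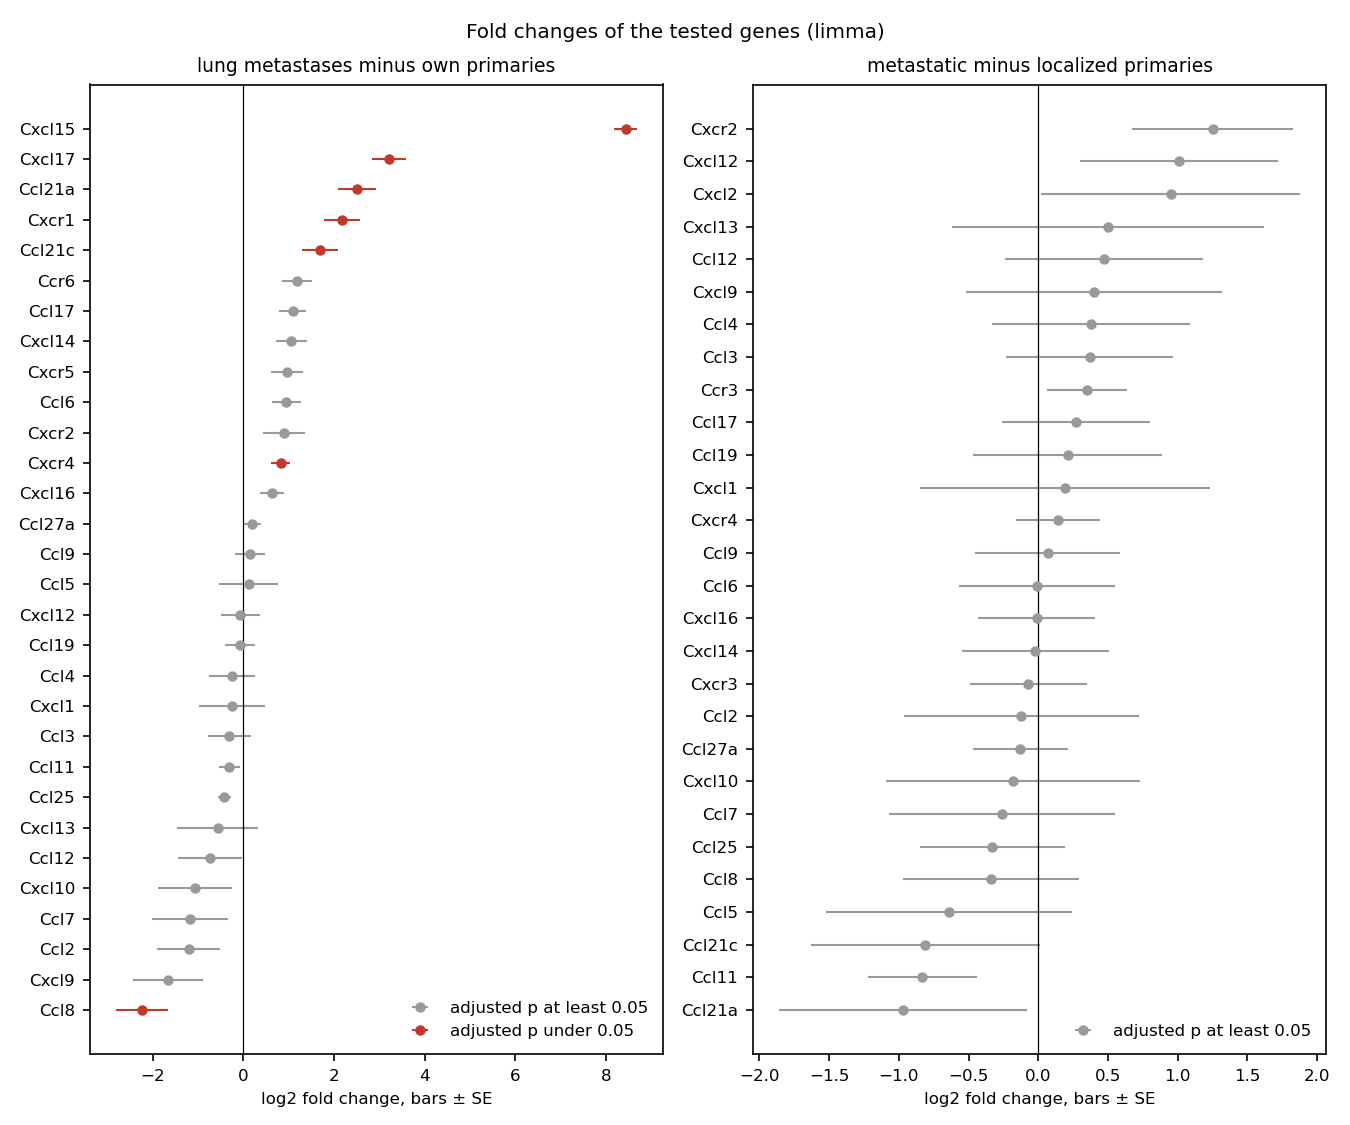
Log2 fold changes of every tested chemokine and receptor gene, with bars of ± 1 SE, for lung metastases minus own primaries (left, 30 genes) and metastatic minus localized primaries (right, 28 genes). Red points have an adjusted p under 0.05: 7 genes on the left and 0 on the right.

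The second comparison was made within 7 specimens, lung metastasis against primary tumour. Of 30 tested genes, 6 were higher and 1 was lower in the lung metastases by limma, where 5.7% of all 11214 tested genes were called higher and 2.59% lower, 8.29% in all. At an unadjusted p under 0.05, 12 were higher and 2 lower. The median log2 fold change (lung minus primary) was 0.13 over the 30 genes and -0.06 over all genes. Of 25 ligands 4 were higher and 1 lower, with a median of -0.08. Of 5 receptors 2 were higher and 0 lower, with a median of 0.96, and all 5 had positive fold changes. Cxcr1 was detected on 6 of 7 lung metastases and 1 of 7 primaries, and Cxcr2 on 6 and 3. Ccr6 and Cxcr5 were each detected on 5 and 2, so these receptors passed the filter mainly through the lung arrays. The other 19 genes were detected on fewer than 7 of the 14 arrays. Because a gene detected only or mainly in lung metastases can pass this filter through the lung arrays, neither the counts nor the signs measure the whole family.

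Cxcl15, a mouse neutrophil attractant made by bronchial epithelium, rose most. Its level had a minimum of 12.02, a median of 13.01 and a maximum of 14.09 in lung metastases, against 4.47, 4.54 and 4.58 in their primaries. All lung metastases lay far above all primaries, none of which detected the gene. It was at least 216-fold higher (log2 fold change 8.44, SE 0.25, adjusted p = 3.62e-07 by limma), and the call held in all 18 alternative settings. Cxcl17, an attractant made at mucosal surfaces, had 6.97, 8.01 and 10.20 in lung metastases, against 4.67, 4.75 and 5.04 in primaries, again without overlap. It was at least 7.02-fold higher (log2 fold change 3.21, SE 0.38, adjusted p = 0.00103 by limma), and a second probe of the gene gave 3.47. The 12 lung epithelium marker genes, of which 12 were higher in the lung metastases, moved with both genes, and their part was not tested. The call of Cxcl17 was lost with array background as a covariate (2.90, adjusted p = 0.316). The metastasis had the lower background in 7 of 7 pairs, so background and site cannot be told apart in these pairs. Every fit of the lung pairs with that covariate gives values at no difference in background, outside the data. In FC-28 both arrays are of low background, with the metastasis the lower (5.368 against 5.658). There Cxcl15 differed by 8.37 and Cxcl17 by 3.58.

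Ccl21a had 8.54, 9.52 and 10.60 (minimum, median, maximum) in lung metastases, against 4.60, 7.13 and 9.68 in primaries. The groups overlapped, but each of 7 lung metastases stood above its own primary, by 0.92 in FC-28 to 4.36 in RF-379. On average it rose by 2.50 (SE 0.42, adjusted p = 0.00741 by limma). Ccl21c rose by 1.69 (SE 0.40, adjusted p = 0.0366 by limma) in 6 of 7 pairs and differed by -0.13 in FC-28. With array background as a covariate the fold changes were -0.80 for Ccl21a and -1.64 for Ccl21c, of the opposite sign. These values too lie outside the data, since background and site cannot be told apart in these pairs. Without the 3 pairs whose lung metastasis held hepatocyte transcripts, neither passed, at fold changes of 2.48 for Ccl21a (adjusted p = 0.0540) and 1.47 for Ccl21c (0.154). Ccl21c also failed without the pair of RF-379, CRE-155, RF-364, FC-279 or RF-212 (adjusted p between 0.0623 and 0.104). Ccl19, the other ligand of Ccr7, stood at -0.08 (SE 0.33, adjusted p = 0.893 by limma). The endothelial marker genes had a level of 9.39 ± 0.70 (SD, n = 7) in lung metastases and 8.20 ± 0.23 (SD, n = 7) in primaries. Of 8 tested, 2 were called higher, where 5.7% of all tested genes were. The part of these marker genes was not tested.

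Of the ligands, Ccl8 alone was called lower. It had 5.02, 7.76 and 9.95 (minimum, median, maximum) in lung metastases, against 8.85, 9.53 and 10.88 in primaries. In 6 of 7 pairs the lung metastasis was lower, by 1.09 in RF-379 to 5.66 in FC-28, while CRE-155 differed by 0.43. Ccl8 fell by 2.24 (SE 0.58, adjusted p = 0.0481 by limma). The call was lost without the pair of RF-379, RF-364, FC-279, CR-147 or RF-212 (adjusted p between 0.0690 and 0.113) and with no filter on detection (adjusted p = 0.101). It was also lost, at -2.29, without the 3 pairs with hepatocyte transcripts (0.204). With the mean of all probes of a gene it was lost as well (0.0601), although Ccl8 has 1 probe, so only the values of other genes changed. With array background as a covariate Ccl8 was at -8.09 (adjusted p = 0.0487 by limma), again a value outside the data. The macrophage marker genes were at 11.04 ± 0.78 (SD, n = 7) in lung metastases and 11.11 ± 0.79 (SD, n = 7) in primaries. Skeletal muscle genes fell with Ccl8, with 9 of 9 tested genes lower, and their part was not tested.

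Among receptors, Cxcr1, a receptor of neutrophil-attracting chemokines, rose. It had 4.76, 6.61 and 8.62 (minimum, median, maximum) in lung metastases, against 4.54, 4.69 and 5.57 in primaries, and was detected on 6 of 7 metastases and 1 of 7 primaries. It rose by 2.17 (SE 0.40, adjusted p = 0.0121 by limma) with 7 of 7 pairs in the same direction, from 0.22 in CR-147 to 3.60 in RF-212. It was 1.42 in the authors' series matrix and 3.35 with array background as a covariate (adjusted p = 0.263), and without the FC-28 pair the gene was detected on too few arrays to be tested. Cxcr2, which shares ligands with it, stood at 0.90 (SE 0.47, adjusted p = 0.245 by limma) with 4 of 7 pairs higher. The neutrophil and marrow myeloid genes were at 9.78 ± 1.61 (SD, n = 7) in lung metastases and 9.10 ± 1.74 (SD, n = 7) in primaries, higher in 4 of 7 pairs.

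Cxcr4, the receptor of Cxcl12, had 8.86, 9.60 and 10.64 (minimum, median, maximum) in lung metastases, against 8.12, 8.91 and 10.09 in primaries. Each of 7 lung metastases stood above its own primary, by 0.10 in CR-147 to 1.55 in RF-364, although the groups overlapped. Its mean rise of 0.82 (SE 0.21, adjusted p = 0.0424 by limma) lay close to the threshold. The call was lost without the pair of FC-28, RF-379, CRE-155, RF-364, FC-279 or RF-212 (adjusted p between 0.0667 and 0.116) and with median scaling (0.48, adjusted p = 0.108). It was also lost with array background as a covariate (1.65, adjusted p = 0.263), with no filter on detection (0.0648), without the specimen block (0.167) and, at 0.90, without the 3 pairs with hepatocyte transcripts (0.124). Its ligand Cxcl12 did not pass: the level had 10.78, 12.21 and 12.96 in lung metastases, against 8.87, 12.71 and 13.99 in primaries, and its mean pair difference was -0.07 (SE 0.43, adjusted p = 0.927 by limma). The probes of Cxcl12 disagreed, since 2 others detected on all 27 arrays had mean pair differences of -1.69 and -0.91.

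Ccl17, a ligand of Ccr4 that attracts T cells, and Ccr6, the receptor of Ccl20, lay just outside the threshold. Ccl17 was higher in 7 of 7 lung metastases (log2 fold change 1.09, SE 0.30, adjusted p = 0.0561 by limma) and Ccr6 in 6 of 7 (1.18, SE 0.33, adjusted p = 0.0589 by limma). A second probe of Ccr6, also detected on 11 arrays, differed by 0.08. The B and plasma cell genes were higher in 7 of 7 pairs (6.70 ± 1.05, SD, n = 7, in lung metastases and 5.51 ± 0.58, SD, n = 7, in primaries), and their part in the values of Ccr6 was not tested. At the low end, Cxcl9 stood at -1.67 (SE 0.77, adjusted p = 0.204 by limma) and Ccl2 at -1.21 (SE 0.69, adjusted p = 0.287 by limma). The tested genes not yet given a fold change here lay between -1.18 for Ccl7 and 1.06 for Cxcl14, and none of them passed.

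**Figure D3:**
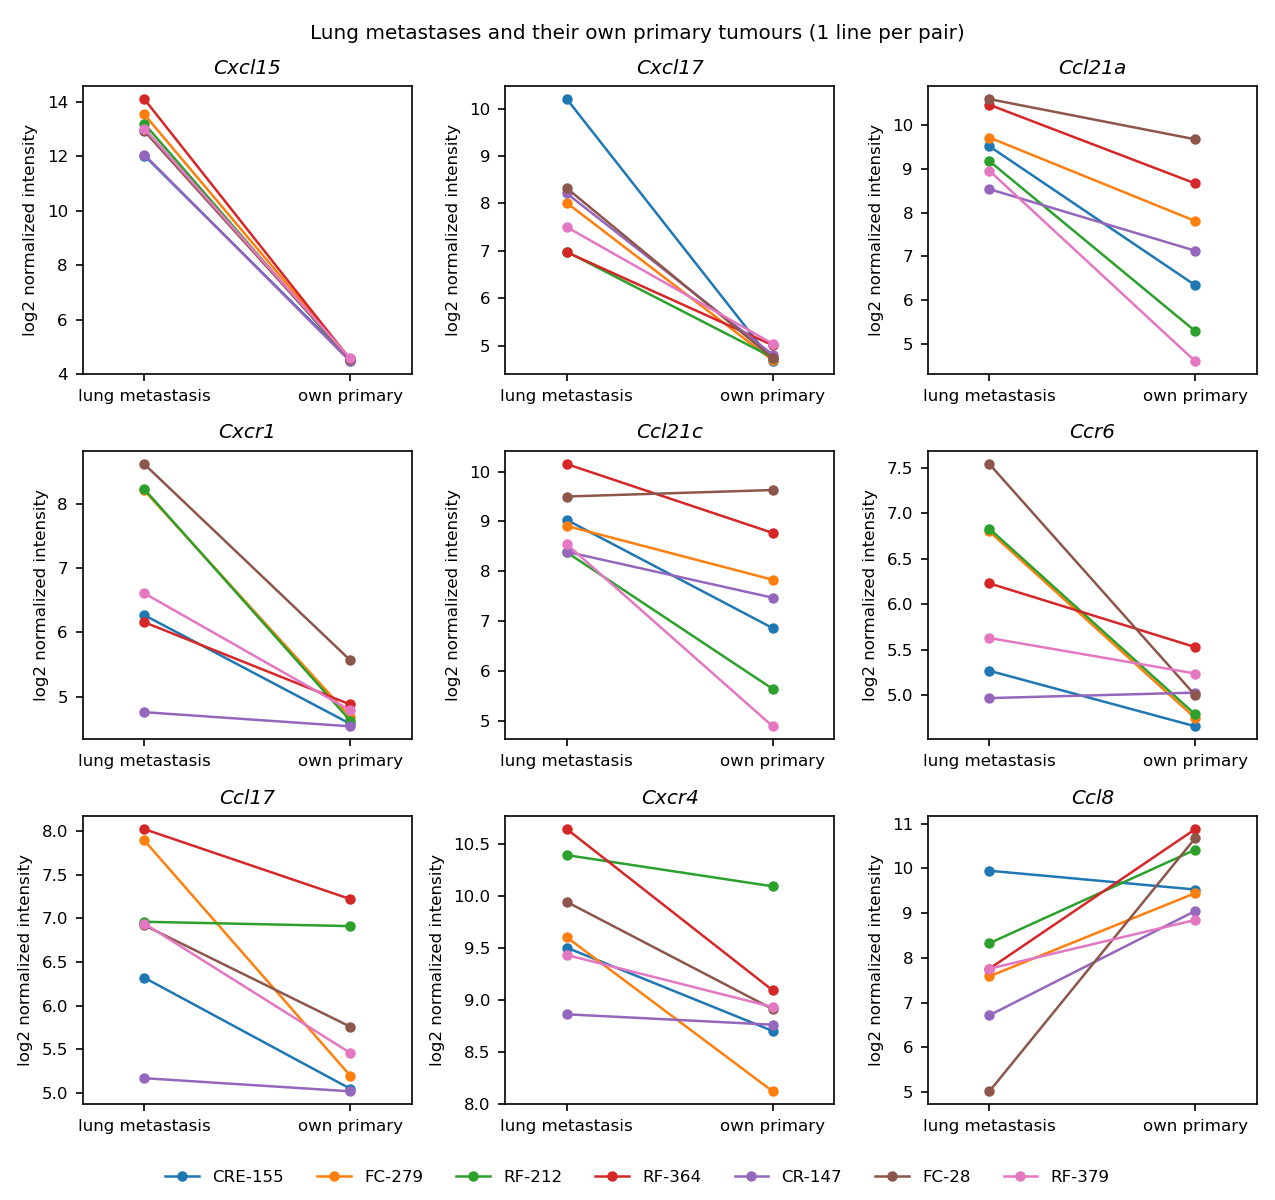
Log2 normalized intensity in each lung metastasis (left) and its own primary tumour (right), 1 line per pair, for the 7 genes past the threshold and for Ccl17 and Ccr6, which lay just outside it. Lines of Cxcl15 and Cxcl17 do not overlap between sides, and Ccl8 falls in 6 of 7 pairs.

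In the FC-28 pair many ligands were lower in the lung metastasis than in the primary. Of the 30 tested genes, 11 (36.7%) were lower by 3 or more on the log2 scale, where 2.54% of all 11214 tested genes were. In each other pair 0 or 1 of the 30 was. This is 1 pair, so the counts have no replicate, and the pair and the genes below were chosen after their values were seen. Ccl7, an attractant of monocytes, had 5.63 in the lung metastasis and 12.63 in the primary of FC-28. Cxcl10, an interferon-induced ligand of Cxcr3, had 4.57 in the lung metastasis and 11.08 in the primary. Cxcl13, the B cell attractant that binds Cxcr5, had 5.79 in the lung metastasis and 11.87 in the primary. A gap of this kind was also seen for Ccl2 (lung 4.71, primary 10.63) and Cxcl9 (lung 4.62, primary 10.13). Cxcl1, a neutrophil attractant, had 7.33 in the lung metastasis and 12.42 in the primary. Cxcl2 had 6.12 in the lung metastasis and 11.22 in the primary. Among the 7 lung metastases, that of FC-28 was the lowest for Ccl7, Cxcl10, Cxcl13, Ccl2 and Cxcl9. For Cxcl1 it equalled their median of 7.33, and for Cxcl2 it lay above their median of 5.04. Among the 7 primaries of these pairs, that of FC-28 was the highest for all of these genes but Cxcl9. For Cxcl1 and Cxcl2, whose windows share the stretch printed above, the other 6 pairs differed by -1.57 to 1.59 and by -0.44 to 0.49. Of the 11 receptors detected on any array, 7 were higher and 4 lower in the lung metastasis of FC-28, with differences between -0.43 and 3.46. Ccr2, the receptor of Ccl2, had 8.12 in the lung metastasis and 4.66 in the primary, and Cxcr5 had 8.17 in the lung metastasis and 4.98 in the primary. Ccr2 differed by -0.38 to 0.02 in the other 6 pairs, where most arrays did not detect it. A second probe of Ccr2 was detected on no array. Bone matrix genes were low on both arrays of FC-28, 5.49 in the metastasis and 6.57 in the primary, and lung epithelium genes were at 13.03 in the metastasis and 5.43 in the primary. Macrophage genes were at 9.76 in the metastasis and 11.82 in the primary. Neutrophil and marrow myeloid genes (11.25 in the metastasis, 9.05 in the primary), B and plasma cell genes (8.58 in the metastasis, 6.09 in the primary) and endothelial genes (10.84 in the metastasis, 8.11 in the primary) were higher. The part of these lists in the values was not tested.

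**Figure D4:**
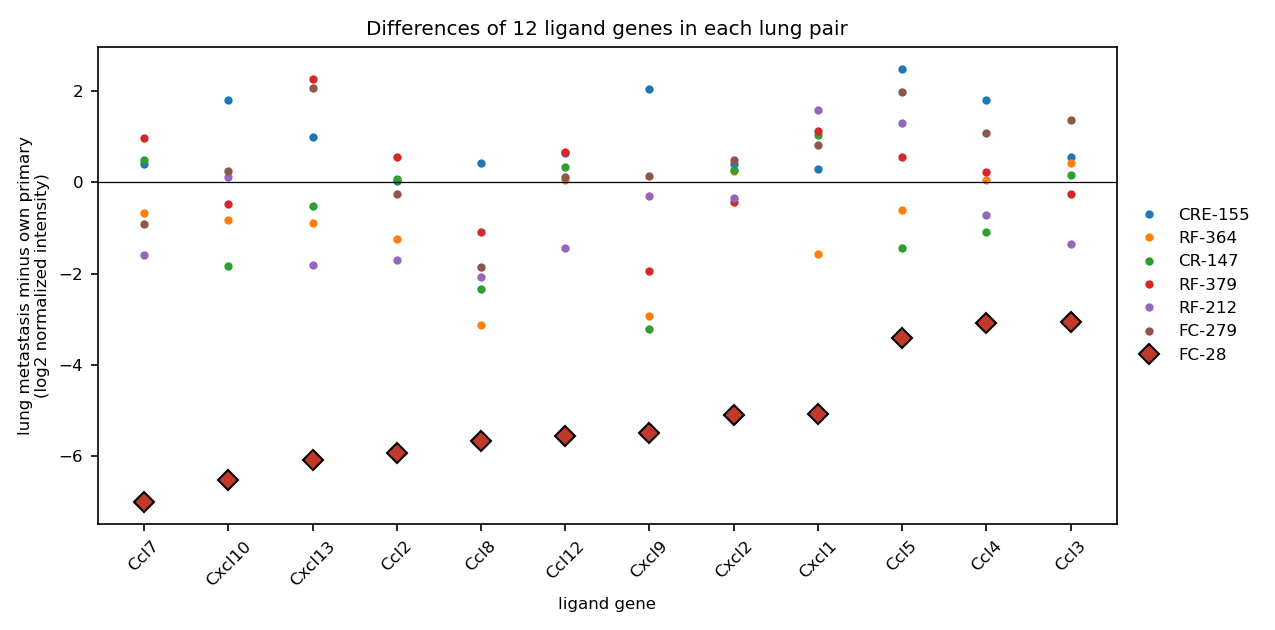
Difference between each lung metastasis and its own primary (log2 normalized intensity) for 12 ligand genes chosen after their values were seen. Points are the 7 pairs. FC-28 (diamonds) lies between -7.00 for Ccl7 and -3.07 for Ccl3, below every other pair for each of the 12 genes.

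The liver metastases were set against the lung metastases and against the metastatic primaries, in 1 fit that shares the liver arrays, so the comparisons are not independent. With 2 liver arrays the precision is low, and the fit shares 1 spread over the 3 groups. Against the lung metastases, 0 of 39 tested genes were higher and 2 were lower by limma, where 9.01% of 13517 genes were called (5.76% higher, 3.25% lower). At an unadjusted p under 0.05, 2 were higher and 5 lower. Against the metastatic primaries, 1 of 39 was higher and 0 were lower, where 9.36% of all genes were called (7.09% higher, 2.27% lower), and 5 were higher and 1 lower at an unadjusted p under 0.05. The median log2 fold change was 0.07 against lung metastases (-0.10 over all genes) and 0.21 against metastatic primaries (-0.17 over all genes).

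Both called decreases were of the lung genes. Cxcl15 was at 9.29 in the liver metastasis of CR-147 and 4.51 in that of RF-342, against a minimum of 12.02 in lung metastases. Its log2 fold change, liver minus lung, was -5.59 (SE 0.69, adjusted p = 3.11e-06 by limma), -8.46 without CR-147 and -3.43 without RF-342. The SD of Cxcl15 was 3.38 in the 2 liver metastases and 0.05 in the 12 metastatic primaries, where it was undetected. As the fit pools these, its SE and p-values do not measure the spread between liver metastases. Cxcl17 was detected on neither liver array (5.25 and 4.85) and was at least 6.61-fold lower than in lung metastases (log2 fold change -2.99, SE 0.50, adjusted p = 0.000222 by limma). Cxcl15 was also the gene called higher in liver metastases than in metastatic primaries (at least 3.22-fold, log2 fold change 2.81, SE 0.66, adjusted p = 0.00627 by limma), and no primary detected it. That call rests on 1 array: without CR-147 the fold change was -0.01. It was also lost with array background as a covariate (2.70, adjusted p = 0.150). The lung epithelium genes were at 9.35 in the liver metastasis of CR-147 and at 6.57 in that of RF-342, against 5.35 ± 0.38 (SD, n = 12) in metastatic primaries, and their part was not tested.

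Cxcl1 had 10.92 in the liver metastasis of CR-147 and 11.49 in that of RF-342, against 6.46, 7.33 and 8.30 (minimum, median, maximum) in lung metastases. Both liver arrays lay above all lung metastases. Liver minus lung was 3.87 on the log2 scale (SE 1.40, adjusted p = 0.0989 by limma). Cxcl1 stood at 3.06 against metastatic primaries (SE 1.35, adjusted p = 0.191 by limma), with which the groups overlapped. Within the specimen CR-147, Cxcl1 was at 10.92 in liver, 7.21 in lung and 6.17 in the primary. With array background as a covariate, Cxcl1 passed against lung metastases (3.88, adjusted p = 0.0293) and its sign turned against metastatic primaries (-1.04). Cxcl9 stood at 9.76 and 12.55 in the liver metastases of CR-147 and RF-342, with fold changes of 3.98 against lung metastases (SE 1.56, adjusted p = 0.138 by limma) and 2.06 against metastatic primaries (SE 1.51, adjusted p = 0.467 by limma). With background as a covariate the difference of Cxcl9 from metastatic primaries was -1.33. Both liver arrays are of low background, while 10 metastatic primaries are of high and 2 of low background. In fits against primaries with that covariate, background and site can thus hardly be told apart.

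The 2 liver metastases differed from each other for several ligands. Cxcl13 was at 7.69 in CR-147 and 13.53 in RF-342, Ccl8 at 6.28 in CR-147 and 12.31 in RF-342, and Ccl5 at 7.09 in CR-147 and 11.91 in RF-342. Without RF-342 the fold change of Cxcl13 against lung metastases was -0.27 in place of 2.09. Ccl12 stood at -0.94 (SE 1.02, adjusted p = 0.637 by limma) against metastatic primaries, and at 0.87 without CR-147. Ccl11 and Cxcl2 stood at -0.94 and -1.06 against metastatic primaries, and neither passed. The B and plasma cell genes were at 5.38 in CR-147 and 9.82 in RF-342, and the neutrophil and marrow myeloid genes at 8.18 and 11.94, and their part in these values was not tested.

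**Figure D5:**
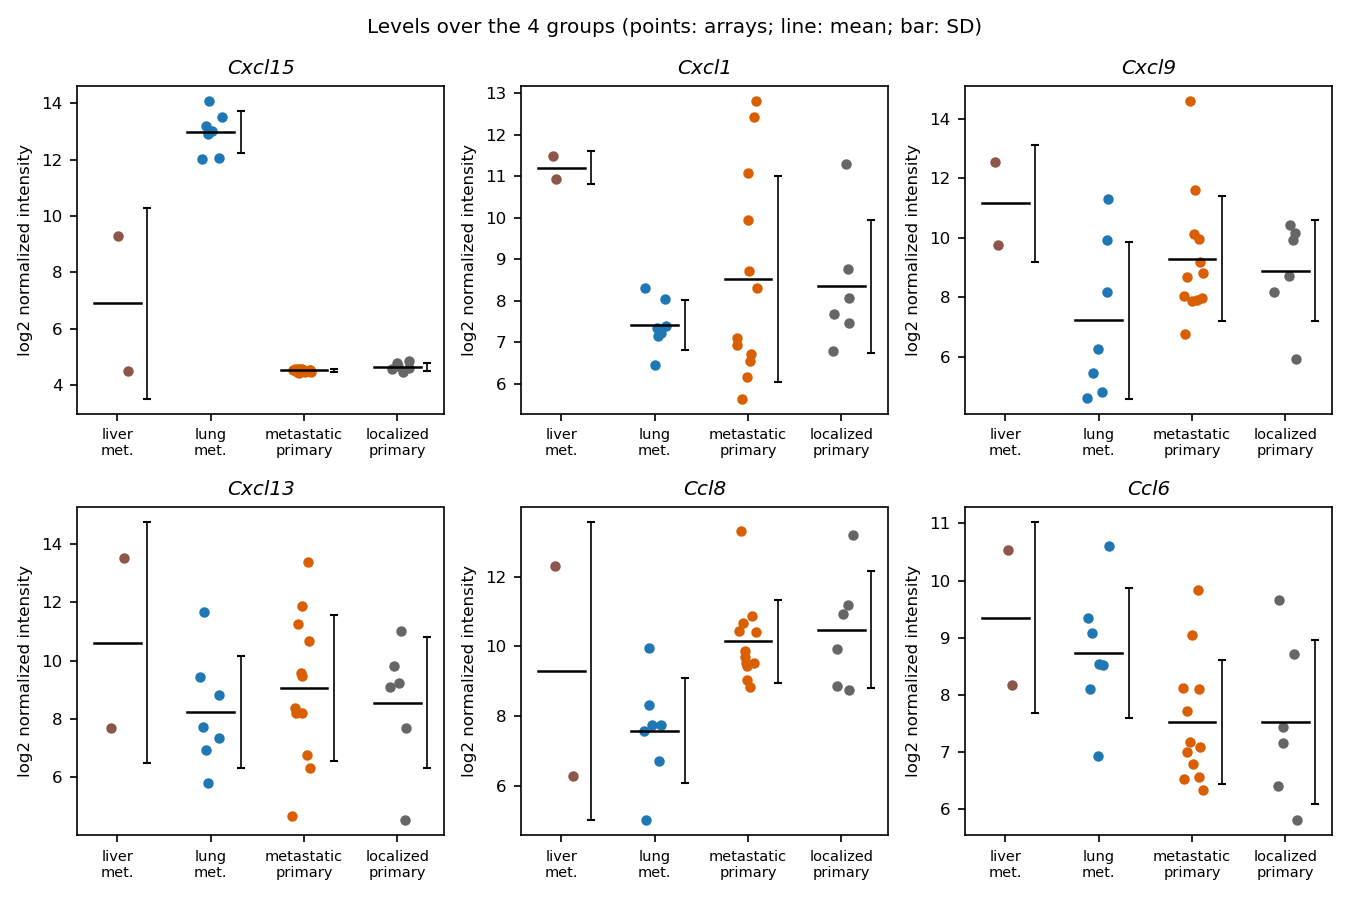
Log2 normalized intensity of 6 ligand genes in liver metastases (2 arrays), lung metastases (7), metastatic primaries (12) and localized primaries (6). Points are arrays, lines are means and bars are SD. Cxcl15 is high in the lung metastases, and the liver points of Cxcl1 (10.92 and 11.49) lie above all lung points.

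Whether ligand and receptor vary together was examined over the 18 primary tumours for 10 pairs. In 9 of the 10 pairs both genes were among the names used, and in 1 pair both were detected on at least 9 primaries. For that pair, Cxcl12 and Cxcr4, Pearson's r was -0.34 (permutation p = 0.162, adjusted p = 0.255) and Spearman's rho was -0.35 (permutation p = 0.155, adjusted p = 0.213). It was -0.18 without the 2 tumours farthest from the median of Cxcl12, -0.54 within the 12 arrays of high background and 0.05 within the 6 of low background. The receptors of the other 8 pairs were rarely detected: Ccr1 on no primary, Cxcr6 on 1, Ccr2 and Cxcr5 on 4 each, Ackr3 and Ccr7 on 5 each, Cxcr3 on 7 and Cxcr2 on 8.

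Neighbouring genes were examined in the same way. Pairs were members next to each other in RefSeq, with under 200000 bases from the end of 1 gene to the start of the next. Of 22 such pairs of chemokine or receptor genes, 10 could be used. P-values were adjusted over these and the ligand-receptor pair, 11 relations in all. Ccl2 and Ccl7, both monocyte attractants, had r = 0.98 and rho = 0.98 (adjusted permutation p = 0.00011 each, the smallest the permutations can give), and 0.98 without the 2 farthest tumours. Their r was 0.96 within high and 0.99 within low background. Ccl3 and Ccl4, which attract monocytes and T cells, had r = 0.78 and rho = 0.77 (adjusted permutation p = 0.00099 and 0.00148), with r = 0.81 within high and 0.75 within low background. Ccl12 and Ccl8 had r = 0.70 and rho = 0.74 (adjusted permutation p = 0.00257 and 0.00297), with 0.86 and 0.65 within high and low background. Cxcl9 and Cxcl10 had r = 0.63 and rho = 0.62 (adjusted permutation p = 0.0110 and 0.0215), with 0.62 and 0.59. Ccl7 with Ccl11 and Ccl6 with Ccl3 passed by Pearson's r alone, and Ccl6 with Ccl3 fell to 0.16 without the 2 farthest tumours. Ccl9 and Ccl6 lie next to each other and had r = -0.02 (adjusted permutation p = 0.940). Whether a probe also reads the transcript of a related neighbour was not tested.

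Of 46 other genes of the chemokine pathway that were named on the array, 5 of 37 tested were higher and 0 lower in lung metastases than in their primaries, with a median log2 fold change of 0.28. Over all genes tested, 5.7% were called higher and 2.59% lower. They were Dpp4, a protease that trims the amino end of many chemokines (3.39, SE 0.33, adjusted p = 0.000309 by limma), Ackr2, a decoy receptor that clears inflammatory CC ligands (1.93, SE 0.36, adjusted p = 0.0125 by limma), and Ppbp, a platelet CXC ligand (1.86, SE 0.47, adjusted p = 0.0420 by limma). The other two were Ccrl2, an atypical receptor that binds chemerin (1.43, SE 0.24, adjusted p = 0.00701 by limma), and Grk5, a kinase that desensitizes receptors coupled to G proteins (0.88, SE 0.17, adjusted p = 0.0147 by limma). Dpp4 had 9.40 ± 1.25 (SD, n = 7) in lung metastases and 6.00 ± 0.57 (SD, n = 7) in primaries. Between metastatic and localized primaries, 0 of 38 passed by limma, with a median of 0.08, and 3 were higher and 1 lower at an unadjusted p under 0.05. In liver metastases Ackr4, a scavenger of Ccl19, Ccl21 and Ccl25, was higher than in lung metastases (2.81, SE 0.36, adjusted p = 6.48e-06 by limma) and than in metastatic primaries (2.63, SE 0.35, adjusted p = 8.19e-06 by limma). Of 41 tested pathway genes it was the 1 called against lung metastases (9.01% of all genes), and together with Dpp4 (5.19) 1 of 2 called against primaries (9.36% of all genes). Hepatocyte genes were at 13.42 ± 0.11 (SD, n = 2) in liver metastases, and their part was not tested.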

How the data were processed

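Total RNA of 27 specimens was hybridised to Illumina bead arrays of a single colour. The authors' deposited bead files hold, per the file headers, an un-normalized intensity for each of 45281 probes and a detection score from 0 to 1, turned into a detection p-value by subtracting it from 1. Log2 values, with a median of 5.9 on every array, come from the authors' deposited series matrix and served as an alternative. Per the submitters' processing notes, BeadStudio was used, and its version and role are not given in the sources used here. The bead files number their probes, and all 45281 were matched 1 to 1 to the probe names of the series matrix by their ranks over all 27 arrays. Probes were named through the platform annotation, which gave 34885 probes 1 symbol, 18 several and 10378 none. All 49 symbols were found in RefSeq (GRCm38.p6), which was used for names, neighbours and sequences.

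Intensities were background corrected with neqc of limma 3.58.1 in R 4.3.3 (offset 16), quantile normalized over 27 arrays and taken to log2. Detection meant a detection p under 0.05, as held for 42.6% to 47.5% of the probes of an array. Each probe's signal rested on a median of 41 to 44 beads. The number of arrays limits the precision. No array repeated another (highest correlation 0.978).

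Tests were two-sided limma fits (lmFit, eBayes) over all genes detected on at least 6 arrays (metastatic against localized primaries), 7 (lung pairs, specimen as a block) or 2 (liver comparisons, 21 arrays, specimen as a random block with statmod 1.5.0, consensus correlation 0.355). P-values were adjusted by Benjamini-Hochberg over all genes tested, with 0.05 as the threshold. Where arrays were left out, the minimum became the size of the smaller group that remained, a rule chosen after seeing the data. The specimen numbers pair the samples, since the labels give a metastasis and its primary the same number. Deviations from the group means correlated at 0.32 to 0.55 within specimens, and for 7 of 7 lung metastases the best match was the primary of that specimen. For a gene that a group did not detect on any array, the fold is a bound against the lowest detected signal. Correlations used 100000 permutations, two-sided. As a check of the code, the fits were run on simulated data with independent arrays, a spread capped below that of many genes here, and changes only in well-detected genes. It does not measure how well changes in the present genes are found.

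The genes and lists were chosen with earlier results of these data known. Genes named with values are those past the threshold in any comparison, the 3 highest and 3 lowest fold changes in each, the 5 highest mean levels and the genes of 10 ligand-receptor pairs. Others named were chosen after their values were seen. Marker lists of lung epithelium, hepatocytes, skeletal muscle, bone matrix, macrophages, neutrophils, T and NK cells, B and plasma cells, dendritic cells, endothelium and erythroid cells were summarized as mean log2 levels. The alternatives covered background correction, offset, scaling, the series matrix, the choice of probe, the detection filter, background as a covariate, array weights, the block and arrays left out. Alternatives chosen after seeing the data were the fits within each background class and the neighbour pairs.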

Additional observations from a re-analysis of the deposited data

Results flagged for a closer look

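An array far from the others of its group was looked for in 66 sets of values of 26 named genes. These were the levels in lung metastases (n = 7) and localized primaries (n = 6), where the group detected the gene, and the differences within lung pairs (n = 7), where the gene was tested. Such a gap was found in 12. For normally distributed values chance flags about 1 in 20 groups, and the genes are not independent. Some flagged sets are mostly undetected values near the floor, where that rate need not hold. Ccr2, Cxcl2 and Cxcr2 were each detected on 1 of 6 localized primaries. Ccr2 and Cxcr3 were each detected on 2 of 7 lung metastases.

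FC-28 was the outlying specimen in 5. Its pair difference was -5.56 for Ccl12 (nearest other pair -1.44) and -5.93 for Ccl2 (-1.70). Its lung metastasis was high for Ccr2 at 8.12 (nearest other 5.35), Cxcr2 at 11.29 (7.30) and Cxcr5 at 8.17 (6.22). Among the other lung metastases, Cxcl16 was low in CR-147 at 9.51 (nearest other 10.62), Cxcl17 was high in CRE-155 at 10.20 (8.32) and Cxcr3 was high in RF-212 at 6.57 (5.25). Among localized primaries, RF-56 was high for Ccr2 at 6.75 (nearest other 4.99) and for Ccr7, which guides lymphocytes and dendritic cells to lymph nodes, at 6.64 (5.32). CR-65 was high for Cxcl2 at 7.95 (5.05) and Cxcr2 at 5.93. Both RF-56 and CR-65 are low in bone matrix genes.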

How the results depend on the processing

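Between metastatic and localized primaries, 0 genes were called higher and 0 lower in all 31 alternatives, and of the 6 genes followed through them, Ccl21a (0.94) and Ccl21c (0.86) changed sign within arrays of low background. In the lung pairs the count of higher genes, 6, was 2 with array background as a covariate and 4 to 7 when 1 pair was left out. With background as a covariate, Ccl21a was -0.80 and Ccl21c -1.64, but background and site cannot be told apart in these pairs. The count of lower genes, 1, was 0 with the mean of all probes, with no filter on detection and without the 3 pairs with hepatocyte transcripts, 2 with background as a covariate, and 0 to 1 when 1 pair was left out. Without the specimen block (no pairing), 4 genes were higher and 1 was lower, and the calls of Ccl21c and Cxcr4 were lost. In the liver comparisons, the count higher than in lung metastases, 0, was 1 with background as a covariate and 0 to 1 without 1 liver array. The count higher than in metastatic primaries, 1, was 0 when detection on every array of 1 group was required and 0 with background as a covariate, and 1 to 2 without 1 liver array. Cxcl1 (-1.04) and Cxcl9 (-1.33) changed sign against metastatic primaries with background as a covariate, but background and site can hardly be told apart there. Leaving out 1 liver array gave -0.27 to 5.20 for Cxcl13 against lung metastases, and -0.01 to 5.01 for Cxcl15 and -2.37 to 0.87 for Ccl12 against metastatic primaries. The causes were not tested. Genes detected on few arrays are limited by signal over background.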
